A study of Mus musculus with 13 samples.

Results

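The nuclear genes for the subunits of the mitochondrial respiratory chain and ATP synthase were followed across single activated B cells. Genes were chosen by symbol from the count table: those that begin with Nduf (assembly factors named Ndufaf left out), Uqcr, Cox4, Cox5, Cox6, Cox7, Cox8 or Atp5, together with Cyc1, Sdha, Sdhb, Sdhc and Sdhd. The rule took 97 of 37991 genes. Of these, 86 are annotated as protein-coding and 11 as pseudogenes. The coding genes comprise 36 of complex I, 4 of complex II, 9 of complex III, 20 of complex IV and 17 of complex V, with Ndufa4 and Ndufa4l2 placed in complex IV.

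Complexes I and II pass electrons from NADH and succinate to ubiquinone, complex III passes them on to cytochrome c, and complex IV hands them to oxygen. Complexes I, III and IV pump protons, and complex V, the ATP synthase, uses the resulting gradient to make ATP. Most subunits are encoded in the nucleus, a few on mitochondrial DNA, and B cells that leave quiescence are known to enlarge their mitochondrial mass and their oxidative metabolism.

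The libraries came from splenic B cells of wild-type C57BL/6 mice of 6 to 8 weeks, given a CpG oligonucleotide for 24 h. The dose is 250 nM in one label and 250 ng/mL in the growth protocol. Single cells were captured on a microfluidic chip and sequenced as 5 large cells (wells C1, E1, E3, G2 and C3) and 5 small cells (A2, C12, C7, F7 and H1), beside 1 library of diluted bulk cDNA at 24 h, 1 of unstimulated bulk at 0 h and 1 of spike-in RNA alone. No mouse or culture is named for a cell, so each size group counts as 1 sample: values are compared without a p-value, and intervals cover counting error only.

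Each cell library held 3311235 to 6311782 gene counts and the diluted bulk 1740862. Large cell C3 was left out of the size comparison, following the study's methods. This leaves 4 large cells and 9 cells in all. Its 10 B cell markers summed to 784 CPM (counts per 1000000 gene counts) with a read for 5 of the 10, against 4361 to 34505 CPM and 9 or 10 markers read in each of the 9 cells. Of 10 myeloid markers 4 had a read in C3, with a sum of 3177 CPM, against 0 to 1898 CPM in the 9 cells. Most of this came from Cst3 (11171 counts), and Lyz2, Csf1r, Cd14 and S100a8 had no read. Of 10 T cell markers C3 had reads for Il7r alone (7010 counts). Adgre1, another of the myeloid markers, had 1868 counts in C3, and 10396 in G2 and 4096 in C12. Cells C7 and G2 also stood apart, with 961 and 656 genes on by the study's threshold for a detected gene, against 1673 to 3819 in the other 7 cells.

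The start sites of these genes are shown first, because a shared control of the respiratory chain genes by the factors NRF1, GABPA and YY1 is textbook knowledge. RefSeq starts (GRCm38.p6, 250 bases before to 50 after the first listed start of each gene) were found for 68 of the 86 coding genes and 27025 genes in all. The letters GCGCATGC (NRF1) occurred on either strand in 10 of the 68, or 14.7%, and in 2.80% of all starts. This word and its reverse complement overlap in a longer palindrome, and such a pair counts once. The letters AAGATGGC (YY1) occurred in 9 of the 68, or 13.2%, and in 2.88% of all starts. Of these 9 genes, 7 encode subunits of complex I, which has 32 of the 68 starts, so its share was 21.9%. The other 2 belong to complex V, or 14.3% of its 14 starts. The letters CCGGAAGT (ETS factors such as GABPA) occurred in 5 of the 68, or 7.35%, and in 4.00% of all starts. At least 1 of the words was present for 33.8% of the subunit genes and for 9.15% of all genes with a start. The windows below are those of 4 genes described in the results, read along the gene's own strand with the matched word in capitals. A match is a description of the letters and does not show that a factor bound there.
Ndufa11, NRF1 letters 60 bases before the start, chr17:56717691-56717720 (+): acctgcactgcGCGCATGCgcgcacgcctt
Ndufa8, NRF1 letters 8 bases before the start, chr2:36049328-36049357 (-): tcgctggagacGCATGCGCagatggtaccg
Uqcr11, NRF1 letters 4 bases before the start, chr10:80406807-80406836 (-): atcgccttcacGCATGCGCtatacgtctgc
Uqcr11, ETS letters 66 bases before the start, chr10:80406869-80406898 (-): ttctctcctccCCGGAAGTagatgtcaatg
Cox6a1, NRF1 letters 160 bases before the start, chr5:115349100-115349129 (-): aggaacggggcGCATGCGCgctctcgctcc

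Transcripts of the nuclear subunits made up 0.985% to 2.13% of all gene counts in the 9 cells. The summed level of the 86 genes was 13362, 21259, 16007 and 10956 CPM in large cells C1, E1, E3 and G2. It was 16271, 16387, 9849, 17729 and 12873 CPM in small cells A2, C12, C7, F7 and H1. The 95% Poisson intervals were narrow beside these differences (21145 to 21373 CPM in E1 and 9742 to 9956 CPM in C7). The groups overlapped throughout. Their means were 15396 ± 4420 CPM in 4 large cells and 14622 ± 3215 CPM in 5 small cells (SD over cells), a log2 ratio of 0.07. Cell C3 had 13070 CPM, and the library of spike-in RNA alone had no count for any of the 86 genes among its 190 counts.

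**Figure D1:**
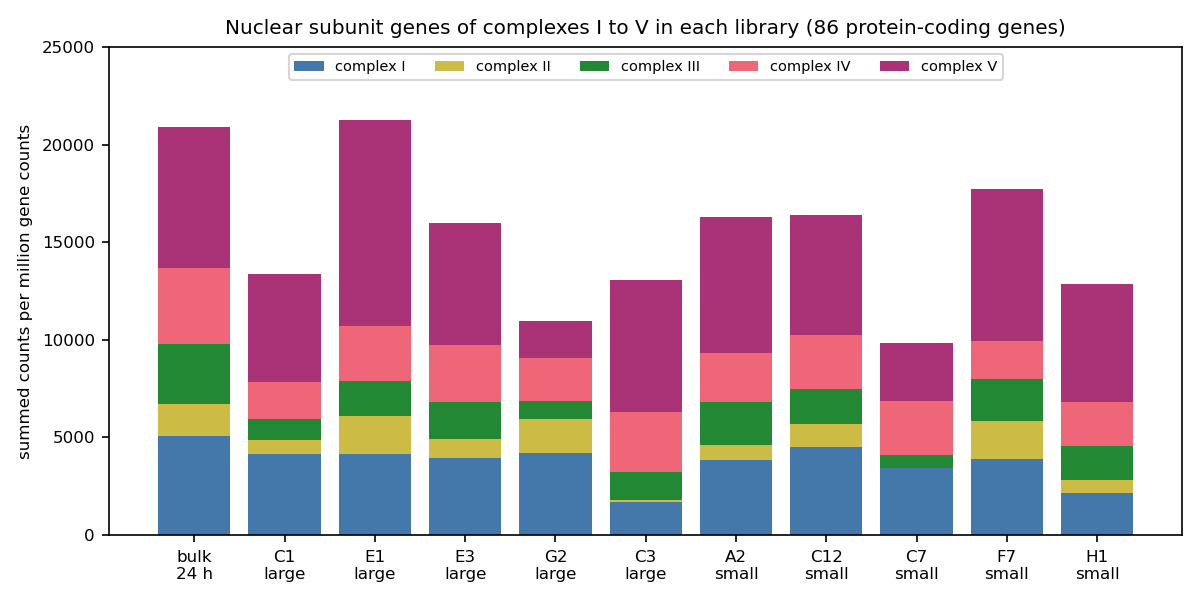
Summed CPM (vertical axis) of the 86 protein-coding subunit genes in the diluted bulk library, the 5 large cells and the 5 small cells, with stacked colours for complexes I to V. Totals run between 9849 in C7 and 21259 in E1, complex V takes the widest range in CPM, and complex II is almost missing from the bars of C7 and C3.

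The summed levels of the complexes followed different patterns over the cells. Complex I was the most even among large cells, with 4158, 4156, 3968 and 4176 CPM in C1, E1, E3 and G2, against 3851, 4495, 3418, 3887 and 2141 CPM in A2, C12, C7, F7 and H1. Complex IV spanned 1863 to 2909 CPM over the 9 cells, a range of 1.56-fold. Complex III spanned 635 to 2231 CPM, with the lowest values in C7 and G2 (635 and 938 CPM). Complex V spanned 5.58-fold, between 1891 CPM in G2 and 10556 CPM in E1. Complex II, which has only 4 genes, spanned 79.5-fold, where C7 had 24.5 CPM and the other 8 cells had 692 to 1946 CPM. Across the 9 cells the summed level of complex I was almost unrelated to that of complex V (Pearson r = 0.10, Spearman rho = -0.10) and of complex IV (r = 0.13, rho = -0.10), and complexes IV and V gave r = 0.15 and rho = 0.30. These points share the total count of each library as denominator and are given as a description.

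The mitochondrially encoded subunits were highest in the cell where the nuclear sum was lowest. The 13 mitochondrial genes summed to 9771 CPM in F7 and to 37833 CPM in C7, and F7 was second highest and C7 lowest of the 9 cells for the nuclear genes (r = -0.59, rho = -0.67, n = 9). Both are shares of the same total, and the nuclear share was also higher in cells with more gene counts (r = 0.72, rho = 0.77). Their part in the relation was not tested.

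**Figure D2:**
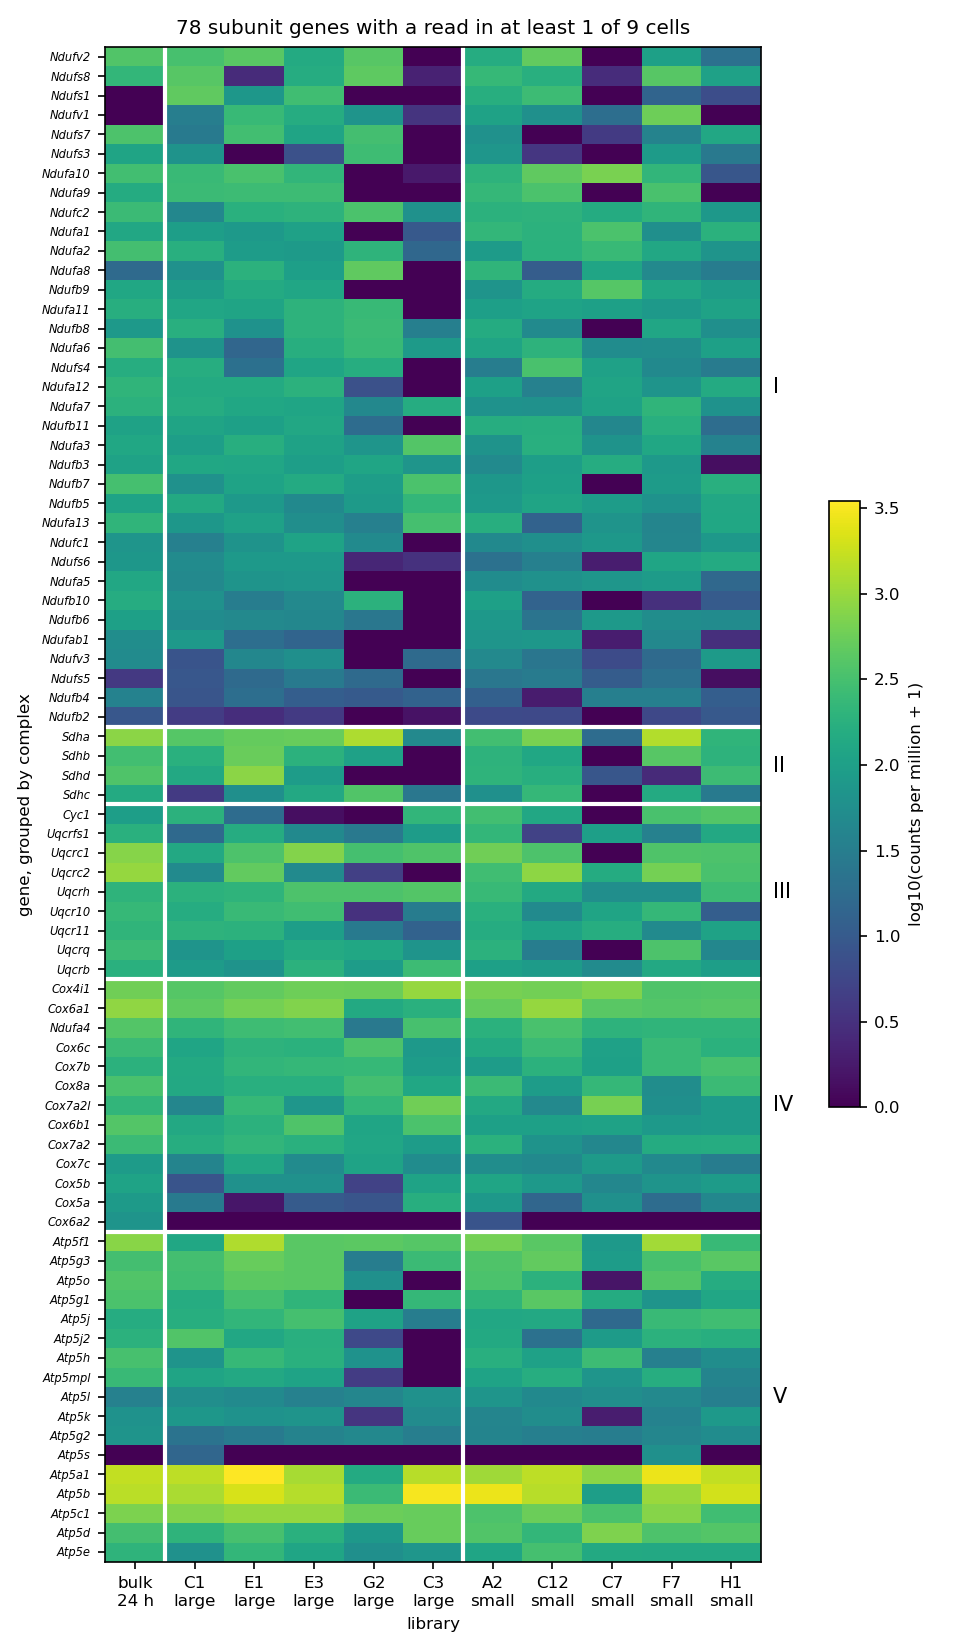
Level of 78 of the 79 coding genes read in 1 or more of 9 cells (rows, grouped by complex, with the core subunits of complex I at the top and those of the F1 head at the bottom), as log10 of CPM plus 1, in the diluted bulk, 5 large and 5 small cells. Dark fields are cells without reads, most frequent in C3 and in the top rows, whereas Cox4i1 and the F1 genes were read in every library shown.

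Most subunit genes were detected in cell after cell. Reads in 1 cell or more of the 9 were found for 79 of the 86 coding genes. The adjusted count is the count times the deposited spike-in factor plus 100, and a gene was called on where it exceeded 300. By this threshold 73 were on in 1 cell or more: 33, 4, 9, 12 and 15 of complexes I to V. The 6 genes read but never on were Ndufb2, Ndufb4, Ndufs5, Cox6a2, Atp5g2 and Atp5s, and Atp5s, a factor linked to the ATP synthase, was read only in C1 and F7 (13.6 and 59.4 CPM). None of the 11 pseudogenes was on. Of the 73, 50 had a read in all 9 cells, or 68.5%, against 16.1% of 6435 genes on in at least 1 cell. Among genes with a mean of at least 50 CPM the shares were 46 of 67, or 68.7%, and 26.3% of 3736. The median coefficient of variation over the 9 cells was 0.63 for those 67 genes and 1.29 for the 3736, with median levels of 141 and 119 CPM. On in all 9 cells were only Cox4i1 and Atp5c1, which is 2.74% of the 73, beside 2.72% of all genes. The number of subunit genes on was lowest in G2 (8 genes, spike-in factor 0.0998) and C7 (13 genes, factor 0.296) and highest in C1 (60 genes, factor 1) and A2 (70 genes, factor 0.935).

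Complex I holds 7 nuclear core subunits, which carry the flavin and iron-sulfur clusters of the electron path, and 29 accessory subunits around them. The accessory subunits summed to between 1850 and 3306 CPM in the 9 cells. The core subunits summed to 1413, 1333, 861 and 1519 CPM in large cells C1, E1, E3 and G2, against 1065, 1189, 299, 1229 and 291 CPM in small cells A2, C12, C7, F7 and H1. C7 and H1 stood well below the other 7 cells. The median coefficient of variation was 1.09 for the core and 0.61 for 23 accessory genes at 50 CPM or more, beside 1.29 for all 3736 genes at that level.

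Single core genes were well read in some cells and not at all in others. Ndufs1, the largest subunit with iron-sulfur clusters, had 477, 73.4, 282 and 0 CPM in C1, E1, E3 and G2, against 167, 269, 0, 12.8 and 5.82 CPM in A2, C12, C7, F7 and H1. Ndufs7, whose cluster is the last before ubiquinone, had 26.7, 297, 116 and 304 CPM in the large cells C1, E1, E3 and G2, against 59.9, 0, 3.02, 37.3 and 133 CPM in small cells A2, C12, C7, F7 and H1. Their groups overlapped, and on the scale of mean adjusted counts these had the highest log2 ratios of large over small cells among genes on in at least 3 cells, 1.14 and 1.03. Ndufv1, which binds NADH and the flavin, had 574 CPM in F7 and no read in H1. Over the 7 core genes, 9 of 63 values in the 9 cells were 0, or 14.3%, beside 35.7% over all 6435 genes on in at least 1 cell. Such gaps were thus less frequent in the core than over all genes.

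In C3 the core was nearly absent. Its 7 genes had 15 counts together, or 3.63 CPM (95% Poisson interval 2.03 to 5.99), against 291 to 1519 CPM in the 9 cells, and 5 of the 7 had no read. The accessory genes summed to 1709 CPM in C3, against 1850 to 3306 CPM. Of 53 coding subunit genes with a read in all 9 other cells, 13 had none in C3, or 24.5%, beside 28.9% of 1424 such genes over the whole table. By complex, those without a read were 8 of 19 in complex I, 4 of 15 in complex V, 1 of 6 in complex III and 0 of 12 in complex IV. The 8 in complex I are all accessory genes, of 18. Only 1 core gene had a read in all 9 other cells, and it had a read in C3, so this comparison does not cover the core. C7 and G2 each lacked 8 of 61 subunit genes that the other 8 of the 9 cells had (13.1%, beside 22.2% and 18.3% of all such genes). C3 was at the same time high for Atp5b (3113 CPM, against 96.9 to 2771 CPM) and Cox4i1 (950 CPM, against 365 to 734 CPM). C3 also had few genes with a read (3519, against 4113 to 8656) and the low B cell markers given above, and their part in these values was not tested.

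**Figure D3:**
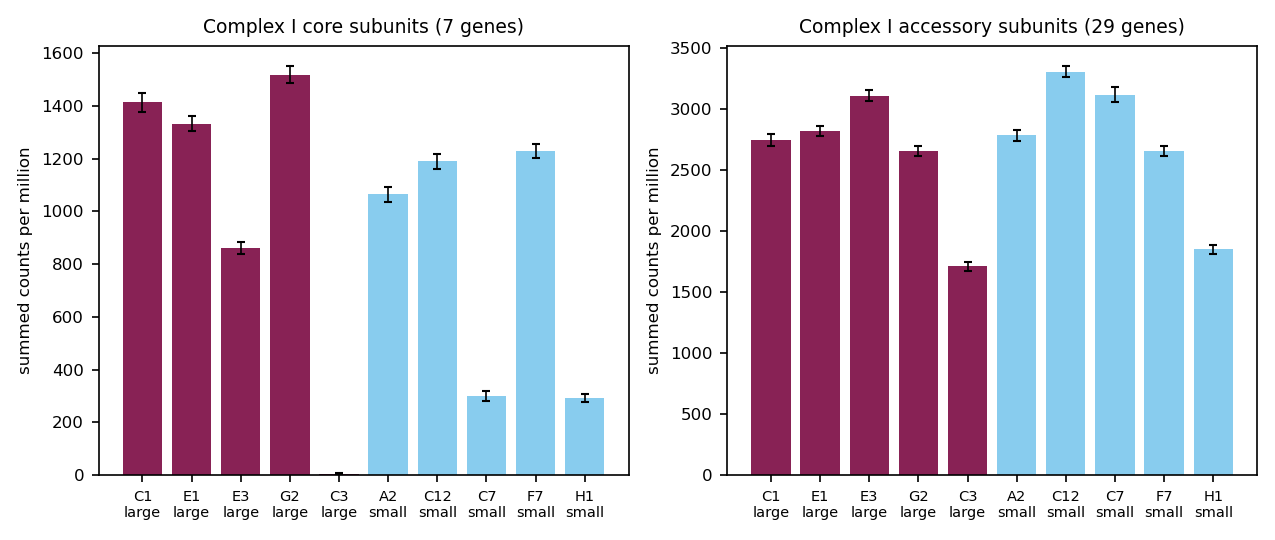
Summed CPM of the 7 core (left) and 29 accessory (right) genes of complex I in 5 large and 5 small cells; bars start at 0 and error bars are 95% Poisson intervals for counting error only. The core bar of C3 is 3.63 CPM and those of C7 and H1 are 299 and 291, while every accessory bar lies between 1709 and 3306.

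Levels between genes were compared per kb of the main annotated transcript (GENCODE M21, mean over the 9 cells). The accessory genes Ndufa1 and Ndufc2 led complex I with 338 and 256 CPM per kb, and the core genes lay between 55.2 (Ndufs1) and 221 (Ndufs8). Ndufc2, a membrane subunit, had 42.8, 177, 196 and 349 CPM in C1, E1, E3 and G2, against 186, 193, 150.1, 203 and 75.9 CPM in A2, C12, C7, F7 and H1. Ndufa1, a small membrane subunit encoded on chromosome X, had 97.0, 78.3, 104 and 0 CPM in C1, E1, E3 and G2, against 219, 189, 347, 57.0 and 184 CPM in A2, C12, C7, F7 and H1, with the lowest log2 ratio of complex I, -0.75. Sdha, the flavoprotein of succinate dehydrogenase, and Sdhb, its iron-sulfur protein, led complex II with 202 and 190 CPM per kb. Sdha had 410, 509, 515 and 1278 CPM in C1, E1, E3 and G2, against 292, 677, 16.6, 1375 and 204 CPM in A2, C12, C7, F7 and H1. Sdhb had 178, 544, 189 and 106 CPM in C1, E1, E3 and G2, against 191, 127, 0, 423 and 192 CPM in A2, C12, C7, F7 and H1. The groups overlapped for both. The membrane anchor gene Sdhd had 134, 831, 88.3 and 0 CPM in C1, E1, E3 and G2, against 198, 164, 7.85, 1.62 and 268 CPM in A2, C12, C7, F7 and H1, and its log2 ratio of 0.99 was the third highest of genes on in at least 3 cells. C7 was low for all of these complex II genes, and F7 combined the highest Sdha with one of the lowest Sdhd values.

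In complex III the small subunit genes Uqcrh and Uqcr10, the hinge protein and a subunit next to cytochrome c1, led with 377 and 324 CPM per kb. Uqcrh had 185, 198, 358 and 353 CPM in C1, E1, E3 and G2, against 245, 142, 55.9, 54.4 and 263 CPM in A2, C12, C7, F7 and H1. Uqcr10 had 153, 252, 280 and 2.15 CPM in C1, E1, E3 and G2, against 174, 47.9, 116, 230 and 10.4 CPM in A2, C12, C7, F7 and H1. Both overlapped between the size groups.

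In complex IV, Cox6a1 and Cox4i1 led with 902 and 708 CPM per kb, and no other of the 86 genes exceeded Cox6a1.
Cox4i1, the regulatory subunit that binds ATP, was the most even of the 67 genes at 50 CPM or more (coefficient of variation 0.25): 400, 486, 566 and 556 CPM in C1, E1, E3 and G2, against 660, 603, 734, 365 and 380 CPM in A2, C12, C7, F7 and H1. Cox6a1 had 453, 628, 742 and 141 CPM in those large cells, against 502, 941, 424, 394 and 413 CPM in the small ones. Neither gene separated the groups.

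Several complex IV subunits exist as isoforms for particular tissues, and the reads came from the common ones. Cox4i2 (lung), Cox7a1 and Cox8b (heart and muscle) and Cox6b2, Cox7b2 and Cox8c (testis) had no read in any of the 9 cells, in C3 or in the diluted bulk, and neither had Ndufa4l2. A count of 0 allows up to 0.475 to 0.906 CPM per cell (3 counts of the library). Their counterparts Cox7a2, Cox8a and Cox6b1 averaged 141, 185 and 143 CPM. Cox7a2 had 159, 212, 174 and 125 CPM in C1, E1, E3 and G2, against 183, 65.4, 42.3, 151 and 154 CPM in A2, C12, C7, F7 and H1. Cox8a had 135, 171, 171 and 299.5 CPM in C1, E1, E3 and G2, against 256, 88.8, 226, 53.0 and 262 CPM in A2, C12, C7, F7 and H1. Both ranges overlapped. Cox7a2l, placed in complex IV by its symbol, had 41.3, 235, 71.1 and 217 CPM in C1, E1, E3 and G2, against 134, 45.4, 652, 56.9 and 85.4 CPM in A2, C12, C7, F7 and H1. It was thus highest in C7 among the 9 cells, and C3 had 596 CPM.

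Cox6a2, the isoform of heart and skeletal muscle, was the exception. It had 117 counts (67.2 CPM) in the diluted bulk and 38 counts (7.30 CPM) in A2, and none in the other 9 cells. In the mouse it also serves as a marker of plasmacytoid dendritic cells. Of the other markers on that list, Bst2 had 240 counts in the diluted bulk and 135 in A2, Siglech had none in either, and Ccr9 had none in the bulk and 5 in A2. Of the 6 markers, 4 were read in the bulk and 5 in A2, including Irf8 and Tcf4, which B cells also express and which were read in all 9 cells. The list summed to 1136 CPM in the bulk, against 297 to 2080 CPM in the 9 cells. The part of such cells in the bulk value was not tested.

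In complex V the catalytic head F1 led, with Atp5b (beta) at 713, Atp5a1 (alpha) at 638 and Atp5c1 (the rotating gamma shaft) at 530 CPM per kb. All 5 F1 genes had a read in every one of the 9 cells, so 0 of 45 values were 0. The share was 7.41% for the other 12 genes of complex V and 7.10%, 8.33% and 4.94% for complexes I, II and III. Full detection was not particular to F1. The 12 complex IV genes that were on also had a read in all 9 cells. The 39.4% of complex IV values at 0 came from its other genes. Atp5b had 1212, 2127, 1421 and 254 CPM in C1, E1, E3 and G2, against 2771, 1428, 96.9, 1027 and 1960 CPM in A2, C12, C7, F7 and H1. Atp5a1 had 1542, 3468, 1205 and 144 CPM in the large cells C1, E1, E3 and G2, against 1071, 1530, 853, 2764 and 1620 CPM in the small cells. G2 and C7 were lowest for both. Atp5c1 had 757, 962, 965 and 560 CPM in C1, E1, E3 and G2, against 351, 563, 335, 785 and 286 CPM in A2, C12, C7, F7 and H1, with a log2 ratio of 0.93 on adjusted counts. Only C12 and F7 of the small cells reached into the range of the large cells.

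The membrane rotor of complex V is a ring of c subunits, and 3 genes encode the same mature protein: Atp5g1 (chromosome 11), Atp5g2 (chromosome 15) and Atp5g3 (chromosome 2). Translated from their GENCODE M21 transcripts, the last 78 residues were identical, but 63 of the 234 coding bases differed in at least 1 gene. The opening 90 bases of that stretch are given to show how a short read can tell the copies apart, with the 26 positions that differ in capitals.
Atp5g1: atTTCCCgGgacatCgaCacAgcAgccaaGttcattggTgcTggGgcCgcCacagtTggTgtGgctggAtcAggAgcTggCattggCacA
Atp5g2: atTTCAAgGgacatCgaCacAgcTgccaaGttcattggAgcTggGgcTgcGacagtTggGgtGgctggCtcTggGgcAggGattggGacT
Atp5g3: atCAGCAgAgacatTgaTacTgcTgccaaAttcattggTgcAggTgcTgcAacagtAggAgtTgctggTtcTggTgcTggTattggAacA
Across the 234 bases the longest identical run was 20 bases between Atp5g1 and Atp5g2, and 11 and 8 bases for the pairs with Atp5g3. Atp5g3 led with 462 CPM per kb, followed by Atp5g1 with 309 and Atp5g2 with 81.9. Atp5g3 had 306, 522, 426 and 30.6 CPM in C1, E1, E3 and G2, against 367, 481, 88.8, 319 and 430 CPM in A2, C12, C7, F7 and H1. Atp5g1 had 157, 312, 206 and 0 CPM in C1, E1, E3 and G2, against 207, 430, 152, 67.0 and 124 CPM in A2, C12, C7, F7 and H1. In G2 both were low, at 0 and 30.6 CPM. Atp5g2 lay between 21.5 and 51.5 CPM in all 9 cells.

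Copies elsewhere in the genome bear on these levels. Of the words of 50 bases in the Atp5g2 transcript, 100% also occur in transcripts of another annotated gene, Gm10175 among them, and the shares were 84.8% for Atp5l, 66% for Atp5g1, 53.0% for Cox7c, 50.5% for Atp5h and 50.3% for Atp5o. These 6 genes, at or above 50%, had a median of 166 CPM per kb, against 159 for the 73 other genes with a read. The low levels of Ndufb4, Ndufb2 and Ndufs5 (15.3, 7.79 and 31.6 CPM per kb) came with shares of 37.0%, 33.5% and 41.2%. Low levels were also found without shared words, in Ndufv3 (19.8 CPM per kb, 0%) and Atp5s (5.47 CPM per kb, 0%), and Uqcrb had 186 CPM per kb with a share of 43.4%. The handling of reads that fit several places is not stated in the sources used here, and the part of copies in these levels was not tested.

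Between large and small cells the subunit genes differed little as a group. The score used for this, defined as in the methods of the original work, subtracts the fraction of small cells with the gene on from the fraction of large ones. A score of 0.5 or more was taken as higher and one of -0.5 or less as lower. Of the 73 genes on in at least 1 cell, 5 were higher in large cells, or 6.85%, beside 5.83% of all 6435 genes, and 2 were lower, or 2.74%, beside 1.88%. The share higher is near that of all genes. The median log2 ratio of mean adjusted counts was 0.14, beside 0.02 over all genes, and 45 of the 73 ratios were above 0, or 61.6%, beside 50.7%. Only Ndufs1 and Ndufs7 had a log2 ratio of 1 or more (2.74%, beside 16.1%), and only Cyc1 and Uqcrc2 one of -1 or less (2.74%, beside 14.3%).

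These counts turned on single cells. Leaving out A2 gave 14 genes higher (20.3%, beside 13.7% of all genes), leaving out G2 gave 13 (17.8%, beside 8.12%), and leaving out C12 or F7 gave 9 each (12.3%, beside 7.54% without C12 and 8.99% without F7). Leaving out C1, E1 or E3 gave 1 gene each (1.39%, 1.37% and 1.37%, beside 2%, 2.35% and 2.63% of all genes), so that the share over all genes was lower as well. The 2 lower genes became 0 without E3 or without G2, 1 without C1 or E1 and 3 without H1. Scaling each cell to its total count instead of the spike-ins left 1 gene higher (1.33%, beside 5.83% of all genes), which was not among the 5, and 3 lower (4%, beside 3%), of which 1 was among the 2. The median log2 ratio was 0.51 without A2, beside 0.53 for all genes, and 0.38 without G2, and it was below 0 when C7, H1, C1 or E1 was left out (-0.05, -0.01, -0.04 and -0.02) or C3 was kept (-0.05).

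**Figure D4:**
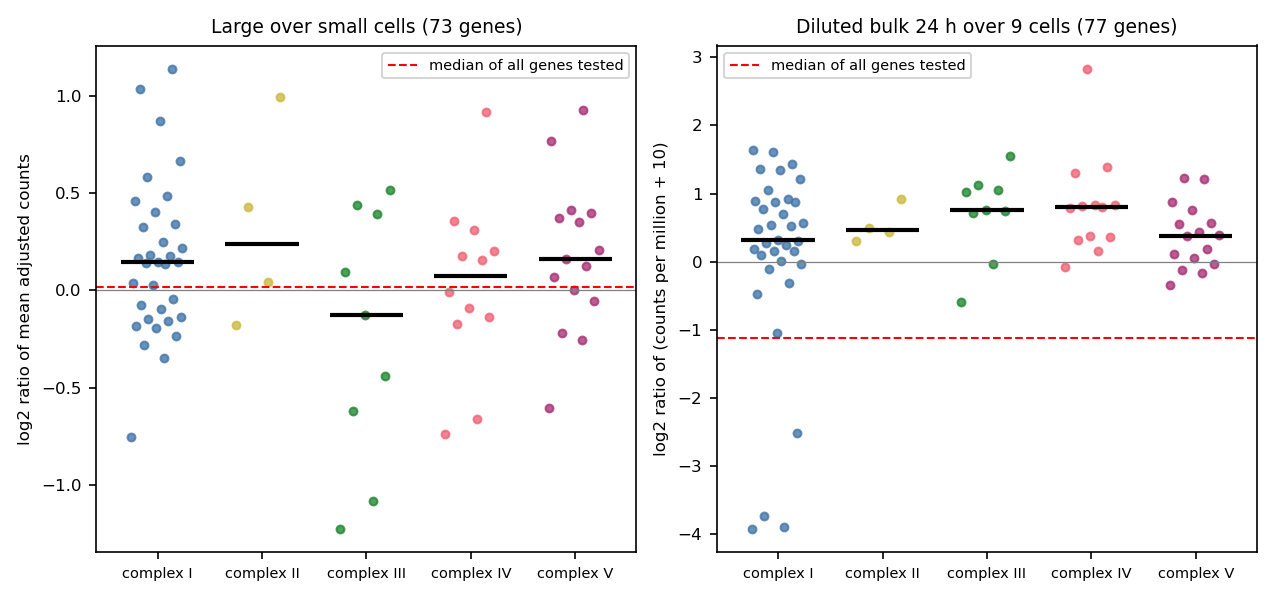
Log2 ratio of each gene by complex, for large over small cells (left, 73 genes, mean adjusted counts) and for the diluted bulk at 24 h over the 9 cells (right, 77 genes, CPM plus 10). Points are genes, black bars the median of each complex and the dashed line the median of all genes tested; on the left the points lie around the line at 0.02, on the right 4 complex I genes lie below the line at -1.13 and the others above it.

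By complex, the median log2 ratios were 0.14, 0.24, -0.13, 0.07 and 0.16 for I to V, and each of them changed sign when 1 of the cells was left out. All 5 genes with a higher score encode small accessory subunits. Ndufa11, an accessory subunit in the membrane arm of complex I, had 125, 117, 191 and 239.8 CPM in C1, E1, E3 and G2, against 97.8, 114, 102, 79.3 and 107 CPM in A2, C12, C7, F7 and H1. Cox6b1, which joins the monomers of complex IV into a dimer on the outer face, had 136, 189.6, 363 and 119 CPM in C1, E1, E3 and G2, against 102, 103, 109, 77.9 and 86.8 CPM in A2, C12, C7, F7 and H1. In both genes all 4 large cells lay above all 5 small cells, the only such cases among the 73 (2.74%, beside 0.435% of all genes), and none lay wholly below (0.373% of all genes). The log2 ratios of adjusted counts were 0.49 and 0.92. C3 had 342 CPM of Cox6b1, again above all small cells, and no read of Ndufa11. Of the 7 genes called by score in either direction, 5 had a listed start. The NRF1 letters shown above occurred in 3 of these, Ndufa11, Ndufa8 and Uqcr11. A link between the letters and cell size was not tested.

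Ndufa8, Ndufb3 and Uqcr11 were higher by score with overlapping levels. Ndufa8, an accessory subunit of the intermembrane space, had the highest score of the 73 genes, 0.80, being on in 4 of 4 large cells and 1 of 5 small cells. Its level was 61.3, 187, 99.5 and 467 CPM in C1, E1, E3 and G2, against 207, 10.1, 118, 45.4 and 30.03 CPM in A2, C12, C7, F7 and H1. The log2 ratio was only 0.22, and it fell below 0 when C3 was kept (-0.02) or when C12 or E1 was left out. Ndufb3, of the membrane arm, had 128, 124, 96.7 and 118 CPM in C1, E1, E3 and G2, against 48.6, 95.03, 153, 77.9 and 0.364 CPM in A2, C12, C7, F7 and H1, with a log2 ratio of 0.66. Uqcr11, the smallest complex III subunit, had 195, 189.8, 97.0 and 26.5 CPM in C1, E1, E3 and G2, against 153, 111, 161, 48.3 and 109 CPM in A2, C12, C7, F7 and H1. Its log2 ratio was 0.39, and -0.06 without C1.

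The genes with a lower score both belong to complex III. Cyc1, the cytochrome c1 that hands electrons to cytochrome c, had 186, 16.8, 0.334 and 0 CPM in C1, E1, E3 and G2, against 289, 133, 0, 329 and 397 CPM in A2, C12, C7, F7 and H1. Uqcrc2, a core protein on the matrix side, had 49.0, 482, 48.3 and 3.76 CPM in C1, E1, E3 and G2, against 280.45, 871, 151, 628 and 331 CPM in A2, C12, C7, F7 and H1. For each gene 1 of 4 large cells and 4 of 5 small cells were on, and the log2 ratios were -1.23 and -1.08. C7 had no read of Cyc1, and E1 had more Uqcrc2 than 3 of the small cells. C3 went separate ways for the pair, with 212 CPM of Cyc1 and no read of Uqcrc2. Of the 50-base words of Uqcrc2, 24.8% are shared with the overlapping gene Pdzd9.

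**Figure D5:**
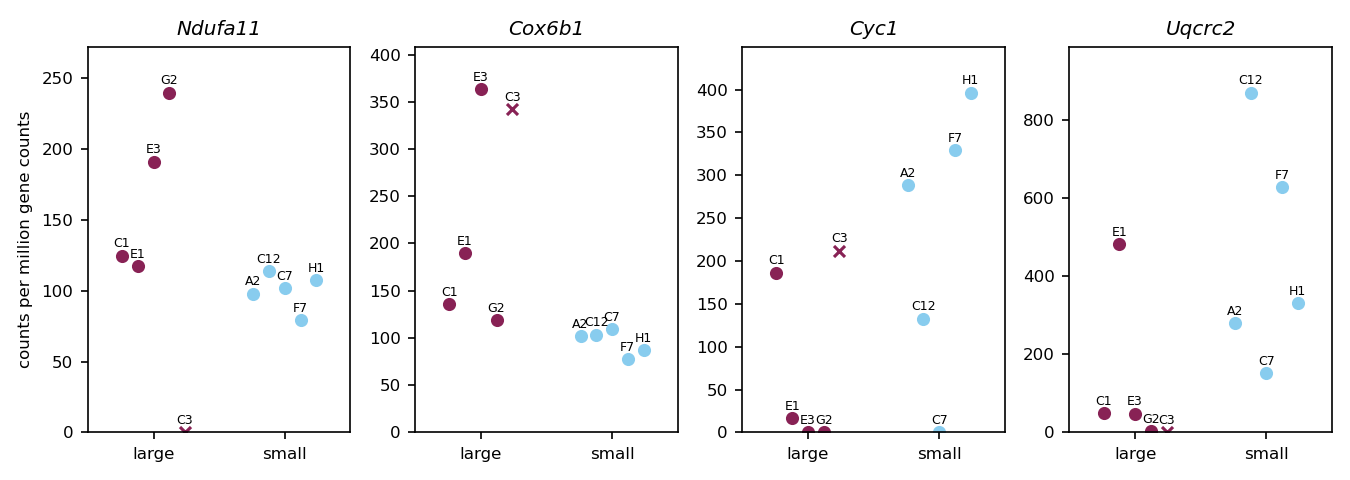
CPM of Ndufa11, Cox6b1, Cyc1 and Uqcrc2 in each large cell (left in each panel, C3 as a cross) and each small cell (right). For Ndufa11 and Cox6b1 the 4 large cells other than C3 lie above all small cells; for Cyc1 and Uqcrc2 most large cells lie near 0, with C1 (Cyc1) and E1 (Uqcrc2) at the level of small cells.

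The diluted bulk library held a larger share of respiratory chain transcripts than most single cells. The 86 genes summed to 20889 CPM in the bulk, against 14966 ± 3558 CPM in the 9 cells (SD, range 9849 to 21259), a log2 ratio of 0.48. Only E1 was higher. In bulk RNA, fewer cells of a type and less RNA per cell cannot be told apart. By complex the bulk had 5094, 1632, 3078, 3859 and 7226 CPM for I to V, and complexes I, III and IV exceeded all 9 cells (at most 4495, 2231 and 2909 CPM).

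Gene by gene, the median log2 ratio of the bulk over the mean of the 9 cells (each with 10 CPM added) was 0.49 for 77 subunit genes with at least 10 CPM on either side, against -1.13 for 7344 genes. No read in the bulk was found for 3 of the 77 genes and for 3052 of the 7344. A gene could enter on its mean over the 9 cells, which a few of them may supply. The part of genes without a bulk read in the gap between the medians was not tested. The bulk had 5186 genes with a read and the 9 cells 4113 to 8656 each. By complex the medians were 0.32, 0.46, 0.76, 0.81 and 0.38 for I to V. Of the 77 genes, 16 had a ratio of 1 or more, or 20.8%, beside 20.3% of all genes, and 5 one of -1 or less, or 6.49%, beside 53.1%. The 16 include Cox6a2 (2.84), Ndufs7 (1.61), Uqcrc2 (1.55) and Cox6b1 (1.39).

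The genes with a ratio of -1 or less are all of complex I and include core subunits. A ratio below 0 was found for 16 genes, 9 of complex I, 2 of III, 1 of IV and 4 of V. Ndufs1 and Ndufv1 had no read in the bulk, against means of 143 and 139 CPM in the 9 cells. A count of 0 allows up to 1.72 CPM there. By counting error alone, Ndufs1 was at least 83.0-fold lower in this 1 library and Ndufv1 at least 80.8-fold. These bounds do not cover transcripts lost before sequencing. Single cells lacked reads of these genes as well, Ndufs1 in C7 and G2 and Ndufv1 in H1. Of 67 subunit genes with a mean of at least 50 CPM, 4.48% had no read in the bulk, against 32.7% of all genes at that level. Other core genes were present, such as Ndufs7 with 351 CPM and Ndufv2 with 384 CPM. Also at -1 or less were Ndufa8, with 15.5 CPM in the bulk against 136 CPM, and Ndufs5, with 2.87 CPM against 16.6 CPM. The core thus had a median log2 ratio of 0.01, and the accessory genes 0.40. The mitochondrially encoded subunits went the other way, with 11602 CPM in the bulk, against 21098 ± 8309 CPM in the 9 cells. Gene by gene, the median log2 ratio was -1.32 for the 8 of them tested, near the -1.13 of all genes.

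The genes around the complexes, taken from fixed lists, were called about as often as all genes. Of 61 that were on, 4 were higher in large cells, or 6.56%, beside 5.83% of all genes, and 2 were lower, or 3.28%, beside 1.88%. Of 47 assembly factors found in the table, 30 were on, with a median log2 ratio of large over small cells of 0.04. Cox10, an assembly factor for complex IV, had a score of 0.50 and Ndufaf4, for complex I, one of 0.55. The log2 ratio of Ndufaf4 was -0.12, opposite in direction to its score. Cox17, a copper carrier for complex IV, had a score of -0.60, with 0 of 4 large cells and 3 of 5 small cells on. All 11 genes on the list of carriers, which includes the ATPase inhibitor gene, were on, with a median of 0.20, no gene higher and Etfb, of the electron transfer flavoprotein, lower (-0.50). Of 17 regulators of mitochondrial gene expression, 12 were on with a median of -0.13, and Gabpb1, a partner of GABPA, was higher (0.50). Of the 13 mitochondrially encoded subunits, 8 were on, with a median of 0.37 and with mt-Nd3 higher (0.55).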

How the data were processed

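Single-cell and bulk cDNA libraries were mapped to the mouse m37 genome with STAR, per the submitters' notes and methods, and the authors deposited whole-number counts of reads per Ensembl gene, without a stated way of counting reads that fit several places. The deposited table of spike-in factors gives for each library a ratio, relative to the highest, that scales counts by the ERCC standards. The 26 further per-sample columns of the count table hold adjusted counts and were not used. Groups come from the sample labels, with cells named by well. Gene symbols came from Ensembl IDs. Counts were analysed as CPM, as count times factor plus 100 (on above 300) for the size score, and as CPM plus 10 for the bulk. Each size group is 1 sample, so no test was run across genes, and 95% Poisson intervals (scipy) cover counting error only. The score and the log2 ratio were computed on simulated counts with known changes. The simulation did not model genes that go unread in single cells, so it checks the calculation and not its behaviour in these data.

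The genes and lists were chosen with earlier results of these data known. Per-cell values were given for genes called by score, the 3 highest and 3 lowest log2 ratios among genes on in at least 3 cells, the top pair per kb in each complex, genes on in all 9 cells, and tissue isoforms and copies, and the core genes of complex I and C3 values were added after the values were seen. Alternatives were scaling to totals, C3 kept, each cell left out, other thresholds, constants and averages. The 0 h bulk was not compared, because its 825441 counts are spread over 33107 genes. Values of 1 gene are not reported here, although sums and counts include it.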

Additional observations from a re-analysis of the deposited data

Results flagged for a closer look

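Among 73 groups of 5 cells examined (summed levels of the complexes and single named genes), 7 had a highest or lowest cell set apart from the other 4 by most of the group's range. The cut-off flags about 1 in 20 for normally distributed values only. That rate does not carry over to these cells, because a gene read in a single cell of a group is always flagged. Some genes were also named for extreme ratios, so the 7 flags cannot be read as an excess. The summed level of complex I was 1713 CPM in large cell C3, with the next at 3968. In large cells, Sdhd was 831.5 CPM in E1 with the next at 134, Uqcrc2 was 482.4 CPM in E1 with the next at 49.0, and Cox8a was 299.5 CPM in G2 with the next at 171. In small cells, Cox6a1 was 940.6 CPM in C12 with the next at 502, Cox7a2l was 652 CPM in C7 with the next at 134, and Cox6a2 was 7.30 CPM in A2 with none in the others. The unstimulated bulk at 0 h, which entered no comparison, had 1179 CPM over the 86 genes, with 84 of the 86 genes read at low counts.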

How the results depend on the processing

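The number of genes higher in large cells, 5, became 1 with scaling to totals (1.33%, beside 5.83% of all genes), 2 with C3 kept (2.74%, beside 0.808%), and 3 with a threshold of 200 (3.95%, beside 5.51%, none of them among the 5) or of 500 (5%, beside 5.41%, 1 of them among the 5). It ranged between 1 and 14 with each cell left out, and was 14 without both C7 and G2 (19.2%, beside 9.28%), an alternative chosen after seeing the data. The number lower, 2, became 1 at a threshold of 200 or 500 and ranged between 0 and 3 with a cell left out. The median log2 ratio of large over small cells ranged between -0.049 and 0.51 with each cell left out, and that of the summed share between -0.12 and 0.21, and was -0.15 with medians over cells. The median of all genes moved by as much when a cell was left out (-0.38 to 0.53). The bulk over cells median was 0.59 with C3 kept, 0.37 with 50 CPM added and 0.69 over the median of the cells, and between 0.41 and 0.55 with a cell left out, always above that of all genes as first computed. The ratio of Ndufa8 was -0.018 with C3 kept and between -0.041 and 1.29 with a cell left out, and that of Uqcr11 between -0.062 and 0.93. Of 363 further values for complexes and named genes, 267 moved by less than their spread and 92 by more. The spread here is the SD of the result's own values with each cell left out. Those values make up most of the 363, so most must fall within it, and this count does not measure stability. The other 4 changed sign, 3 of Ndufa8 (the third, without C12, at -0.0044) and 1 of Uqcr11. Sign changes were counted apart only for genes called by score. Those of complex medians and of other named genes fall among the 267 or the 92. Atp5b is an example, at -0.60 to 0.81 with a cell left out. No paired analysis was possible because the labels give the cells no replicate numbers. No cause of these shifts was tested. Each size group is 1 sample of 4 or 5 cells, so the spread between mice or cultures is unknown, and no depth can supply it.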
